A study of Mus musculus with 18 samples.

Results

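The 9 genes described here move drugs and bile acids across cell membranes or oxidise them: the exporters Abcb1a, Abcb1b, Abcc1, Abcc3, Abcc5 and Abcg2, the bile acid importer Slc10a2, and the enzymes Por and Cyp3a13. They were chosen by name, and all 9 are among the 34162 genes of the deposited table and among the 14876 genes with enough counts to be tested. Each library was made by RNA-seq of about 500 CD4+ effector T cells, sorted 3 weeks after transfer into Rag-deficient mice, whose own lymphocyte development stops before mature T and B cells. The donor cells were deficient in CAR (constitutive androstane receptor, gene Nr1i3; genotype Nr1i3-/-) or were wild type cells that carry the congenic CD45.1 marker, both on the C57BL/6 background. Each genotype was sorted from the small intestine lamina propria (siLP), the colon lamina propria (cLP) and the spleen, in 3 libraries per group, 18 in all. The labels do not tell which hosts each genotype and library came from, so replicate spread here may be technical, and every p-value refers to it alone. Names of the count columns give only the organ and the CD45.1 status, and columns negative for CD45.1 were assigned to the CAR-deficient groups by exclusion. The letters a, b and c stand for the column endings in their order, and what the endings mean is not stated. Libraries of the same ending deviated together across groups, with correlations over 0.1 in 41 of 45 pairs against 7 of 90 other pairs. The main fit and the permutations did not use the ending, and a fit with it as a block is given as an alternative.

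ABC transporters use ATP to push substrates out of the cell. P-glycoprotein, also called MDR1, is the best known of them: rodents encode it in the neighbouring genes Abcb1a and Abcb1b, it exports many drugs, and in T cells of the mouse ileum it is known to limit stress from bile acids. CAR is a nuclear receptor that in liver switches on genes of drug and bile acid handling, among them cytochrome P450 enzymes and exporters. Slc10a2 is the ileal transporter that takes bile acids back from the gut, and Por passes electrons to the cytochromes P450.

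Total estimated counts ranged from 19605316 to 25436582 per library, and 3 counts, taken as the lowest detectable amount, were worth 0.108 to 0.185 CPM (read counts scaled to a common library size by TMM). The 6 libraries a stood apart, with 15592 to 16241 genes detected and 3.70 to 3.98% of counts from mitochondrial genes, against 17081 to 18930 genes and 2.23 to 3.22% in the other 12. The markers Cd3e and Cd4 were present in every library, at no less than 555 CPM and 109 CPM. Of 5 markers of CD8 T and NK cells, Cd8a did not exceed 2.44 CPM, Ncr1 4.26, Klrb1c 7.88 and Cd8b1 11.6 CPM. Eomes, the other, was at 26.8 to 149 CPM. The 10 markers of macrophages, monocytes and dendritic cells summed to 62.5 to 192 CPM in siLP libraries. They summed to 32.9 to 126 CPM in cLP and 19.7 to 65.1 CPM in spleen libraries. The part of such cells in the values below was not tested. Nr1i3 counts did not separate the genotypes. They were highest in the library labelled CAR-deficient siLP a, with 196 counts or 9.49 CPM, and were 0 in 4 of the 9 libraries labelled CAR-deficient and in 5 of the 9 wild type libraries. Which part of Nr1i3 is deleted in these mice is not stated in the labels, so these counts are no check of the genotype.

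Abcb1a (ENSMUSG00000040584, chr5:8660077-8748575, plus strand) and Abcb1b (ENSMUSG00000028970, chr5:8798147-8866315, plus strand; both GRCm38, GENCODE vM21) lie side by side and are alike in sequence, which bears on every value below. Their coding sequences, 3828 bases each, were identical at 88.0% of 3819 aligned positions. The longest run without a difference was 338 bases, in exons 13 and 14 of both full-length transcripts (chr5:8702387-8702944 in Abcb1a and chr5:8824707-8825264 in Abcb1b, with the intron between). A read from inside this run fits both genes equally well. The 60 coding bases around each end of the run are printed from the GENCODE transcripts, with capitals at the positions where the genes differ. The windows at the 5′ end span chr5:8702267-8702416 in Abcb1a and chr5:8824587-8824736 in Abcb1b, and those at the 3′ end span chr5:8702915-8713197 and chr5:8825235-8825561, introns included.
Abcb1a, 5′ end: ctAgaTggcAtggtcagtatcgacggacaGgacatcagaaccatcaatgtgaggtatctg
Abcb1b, 5′ end: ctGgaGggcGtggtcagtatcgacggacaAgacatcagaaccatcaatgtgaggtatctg
Abcb1a, 3′ end: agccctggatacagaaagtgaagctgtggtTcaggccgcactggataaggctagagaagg
Abcb1b, 3′ end: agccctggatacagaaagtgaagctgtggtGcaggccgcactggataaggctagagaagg
The genes differ at 4 of the 60 positions around the 5′ end and at 1 of 60 around the 3′ end. Counted over all annotated transcripts, 28.2% of the distinct 31-base stretches of Abcb1a also occur in another gene, 21.7% in Abcb1b, 9.05% in the gene model Gm42686 and 4.02% in Abcb4, the phospholipid exporter of bile. For Abcb1b the share was 17.4%, with 14.8% in Abcb1a. The deposited counts of both genes were not whole numbers in any of the 18 libraries (off by more than 0.0005), as happens when reads are divided between transcripts. Counts of Por and Abcc3, which share no 31-base stretch with another gene, were whole in all 18.

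The start regions of the 2 genes were read from RefSeq (GRCm38.p6, with 250 bases before and 50 after the start site). They were picked because both genes had higher mean levels in cLP than in spleen libraries. The windows were searched on both strands for AGGTCA and AGTTCA, elements bound by nuclear receptors, for AGGTCA repeated in the same direction after 4 other bases, for the GC box GGGCGG and for CCAAT. Capitals mark the matches.
Abcb1a, chr5:8566841-8567140, plus strand: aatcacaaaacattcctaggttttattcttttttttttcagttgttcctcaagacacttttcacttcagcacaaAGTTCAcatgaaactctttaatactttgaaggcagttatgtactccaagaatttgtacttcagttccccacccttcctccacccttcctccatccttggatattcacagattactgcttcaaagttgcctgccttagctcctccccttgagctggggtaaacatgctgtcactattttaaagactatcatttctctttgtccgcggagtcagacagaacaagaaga
Abcb1b, chr5:8797897-8798196, plus strand: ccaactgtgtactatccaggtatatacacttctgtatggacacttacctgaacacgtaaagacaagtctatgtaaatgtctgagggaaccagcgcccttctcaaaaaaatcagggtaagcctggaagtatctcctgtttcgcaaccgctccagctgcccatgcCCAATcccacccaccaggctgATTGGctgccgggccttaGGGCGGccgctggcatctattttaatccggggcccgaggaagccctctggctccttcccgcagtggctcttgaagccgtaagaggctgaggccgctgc
The Abcb1b window holds CCAAT at position 164, its reverse complement at 185 and GGGCGG at 203. The Abcb1a window belongs to a RefSeq start 92986 bases before the start of the GENCODE gene and holds AGTTCA at position 75. Of all 32851 windows, 37.4% hold CCAAT, 35.7% GGGCGG, 16.3% AGGTCA, 14.0% AGTTCA and 0.0152% the direct repeat. RefSeq windows were at hand for 7 of the 9 genes, and the direct repeat occurred in none of them. A match is a description of these letters and not a binding site.

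Abcb1a and Abcb1b together were higher in cLP than in spleen cells. The summed level was 61.6, 109.3 and 101.3 CPM in CAR-deficient cLP libraries a, b and c and 72.9, 74.6 and 81.4 CPM in wild type cLP libraries, against 42.1, 43.0 and 52.1 CPM in CAR-deficient spleen libraries and 34.9, 40.9 and 35.5 CPM in wild type spleen libraries. All 6 cLP libraries lay above all 6 spleen libraries, as for 3.48% of all tested genes in either direction. With the counts of the 2 genes added and treated as 1 gene, a choice made after the shared sequence and the values had been seen, the log2 fold change of cLP over spleen was 1.02 ± 0.24 (SE), with an adjusted p of 0.0303 by edgeR's quasi-likelihood test (Benjamini-Hochberg over all genes). That call depended on which library was left out: it was past the threshold of 0.05 in 8 of the 18 fits that left out 1 library. The log2 fold changes were 0.95 to 1.12 and the adjusted p 0.0155 to 0.0910 (edgeR). The call was lost without any of 4 cLP libraries (b or c of either genotype) or any of the 6 spleen libraries. Of fits that left out a cLP or spleen library, it held only without cLP library a of either genotype. The other fits where it held left out a siLP library, which is not part of this comparison. In siLP the summed level was 47.2, 88.6 and 92.8 CPM in CAR-deficient libraries and 32.9, 53.3 and 82.3 CPM in wild type libraries. The siLP libraries spread across the range of both other organs, and siLP over spleen gave 0.67 ± 0.24 with an adjusted p of 0.330 (edgeR). In bulk libraries, more cells that express a gene and more RNA per cell cannot be told apart.

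**Figure D1:**
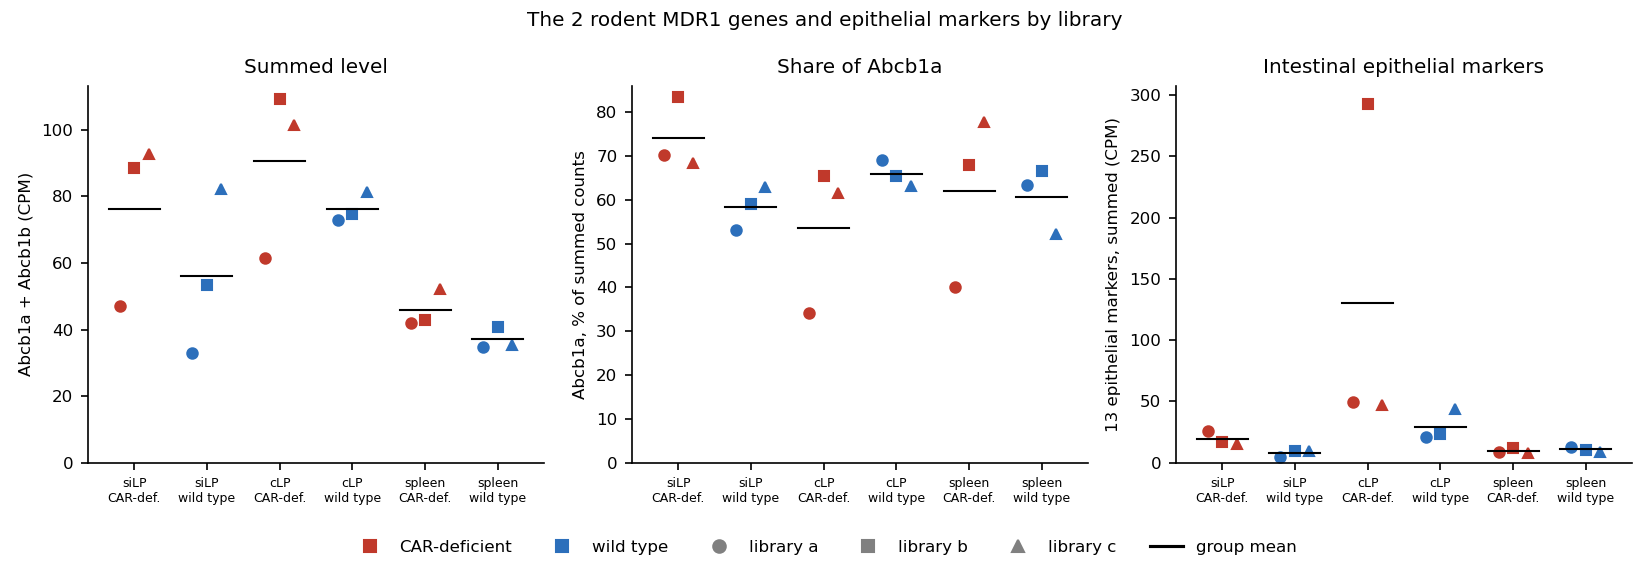
Each point is 1 library and each black line a group mean, with CAR-deficient libraries in red and wild type libraries in blue: the summed level of Abcb1a and Abcb1b in CPM (left), the share of Abcb1a in their summed counts in percent (middle), and the summed CPM of 13 intestinal epithelial markers (right). The 6 cLP libraries lie between 61.6 and 109.3 CPM of Abcb1, above the 6 spleen libraries at 34.9 to 52.1 CPM, and CAR-deficient cLP library b has 293 CPM of epithelial markers.

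Markers of gut epithelium, a tissue that makes P-glycoprotein, moved with the same contrast. Of 13 epithelial markers 10 could be tested, and Cdh1, Cldn7, Krt19 and Krt8 were higher in cLP than in spleen cells past the threshold, with no marker lower. The summed level of the list was 47.2 to 293 CPM in CAR-deficient and 21.2 to 44.2 CPM in wild type cLP libraries, against 7.70 to 11.9 CPM in CAR-deficient and 9.06 to 13.04 CPM in wild type spleen libraries. In siLP it was 15.1 to 25.6 CPM in CAR-deficient and 4.73 to 9.82 CPM in wild type libraries. Epcam, 1 of the 13 markers, was at 0, 29.1 and 5.95 CPM in CAR-deficient cLP libraries a, b and c. The summed list was at 49.6, 293 and 47.2 CPM in these libraries. Abcb1a was at 21.0, 71.4 and 62.3 CPM in them and Abcb1b at 40.6, 37.9 and 39.0 CPM. In spleen libraries Epcam ranged from 0 to 6.44 CPM. Without library b, which held the most epithelial RNA, the summed Abcb1 difference of cLP over spleen was 0.95 with an adjusted p of 0.0741 (edgeR). The call was also lost without some other single cLP libraries and without any single spleen library, so its loss was not particular to library b. The part of epithelial RNA in the Abcb1 values was not tested. The 5 erythroid markers ran the other way, with a summed 146 to 2316 CPM in spleen libraries and at most 18.7 CPM in gut libraries.

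As separate genes, Abcb1a and Abcb1b missed the threshold in every comparison by edgeR on the counts alone. A planned edgeR fit with offsets for the deposited transcript lengths, run before those columns were set aside, put both genes past the threshold for cLP over spleen, higher in cLP; its values are not given here. Abcb1a was at 21.0, 71.4 and 62.3 CPM in CAR-deficient cLP libraries and at 50.3, 48.7 and 51.4 CPM in wild type cLP libraries. In spleen it was at 16.9, 29.2 and 40.5 CPM in CAR-deficient and 22.1, 27.2 and 18.5 CPM in wild type libraries. Only CAR-deficient cLP library a lay within the spleen range. The log2 fold change of cLP over spleen was 0.99 ± 0.34 (adjusted p = 0.137, edgeR), and without CAR-deficient cLP library a it was 1.18 with an adjusted p of 0.0451 (edgeR). In siLP Abcb1a was at 33.2, 74.0 and 63.4 CPM in CAR-deficient and 17.4, 31.4 and 51.9 CPM in wild type libraries, and siLP over spleen was 0.77 ± 0.34 (adjusted p = 0.472, edgeR).

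Abcb1b was at 40.6, 37.9 and 39.0 CPM in CAR-deficient cLP libraries and at 22.6, 25.8 and 29.9 CPM in wild type cLP libraries. Spleen libraries had 25.2, 13.8 and 11.6 CPM in CAR-deficient and 12.8, 13.7 and 17.0 CPM in wild type cells. CAR-deficient spleen library a, at 25.2 CPM, was the only spleen library inside the cLP range. The log2 fold change of cLP over spleen was 1.03 ± 0.28, with an unadjusted p of 0.00208 and an adjusted p of 0.0585 (edgeR). DESeq2 and limma's voom with sample weights put Abcb1b past the threshold, with adjusted p of 0.00257 and 0.000622. So did edgeR without CAR-deficient spleen library a (1.25, adjusted p = 0.0327). With the column ending as a replicate block, edgeR gave 1.02 (adjusted p = 0.0458). In siLP Abcb1b was at 14.0, 14.6 and 29.3 CPM in CAR-deficient and 15.4, 21.9 and 30.4 CPM in wild type libraries. For siLP over cLP the log2 fold change was -0.62 ± 0.28 (adjusted p = 0.575, edgeR).

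**Figure D2:**
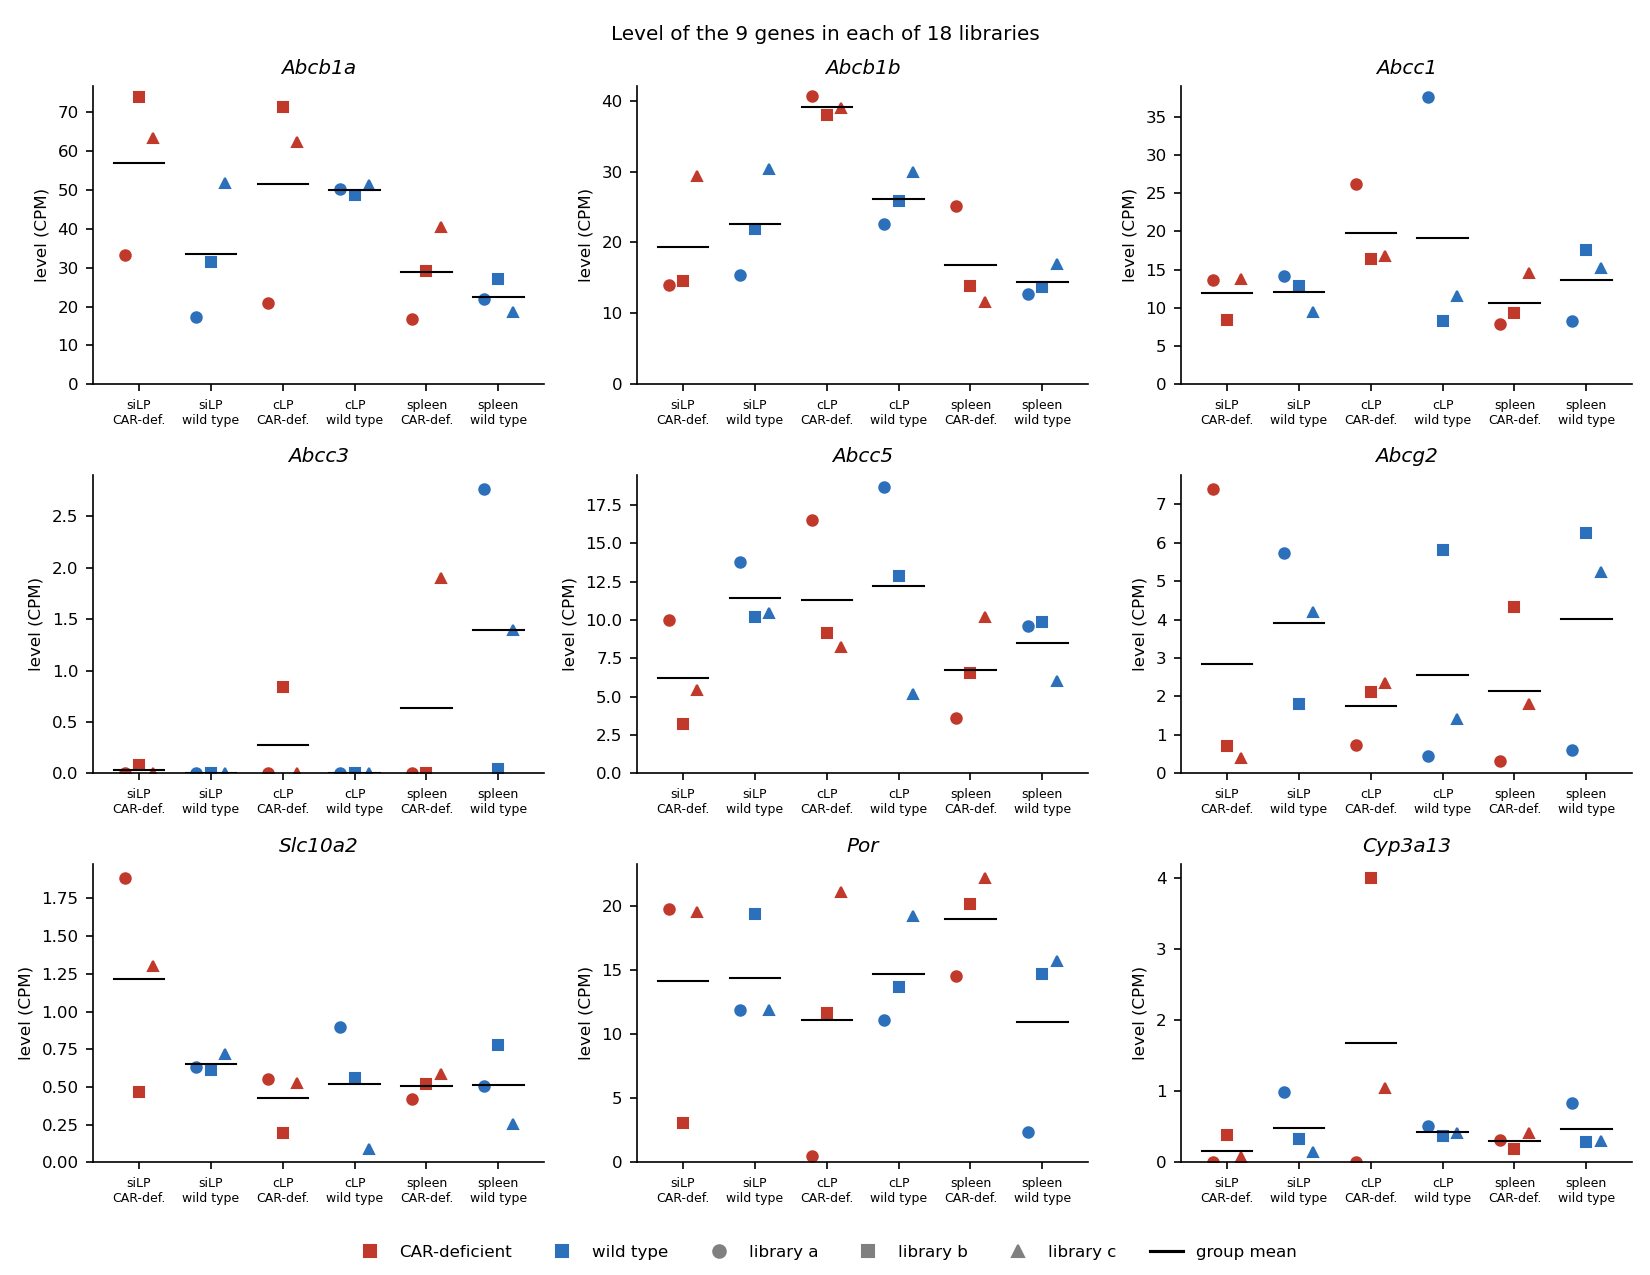
Level in CPM of each of the 9 genes in each of the 18 libraries (points; circle, square and triangle for libraries a, b and c), with CAR-deficient groups in red to the left of wild type groups in blue and a black line at each group mean. Abcb1b lies between 37.9 and 40.6 CPM in CAR-deficient cLP libraries, Abcc3 is at or near 0 outside the spleen except in CAR-deficient cLP library b, and Por is near 0 to 3 CPM in 3 libraries of 3 different groups.

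Compared per length, as CPM divided by the kilobases of each gene's longest coding transcript (4997 bases for Abcb1a and 4306 for Abcb1b), Abcb1a averaged 8.13 ± 3.83 and Abcb1b 5.36 ± 2.25 CPM per kilobase (SD, n = 18). Abcb1a was above Abcb1b in 14 of 18 libraries on this scale. The widest exception was CAR-deficient cLP library a, with 4.21 CPM per kilobase of Abcb1a and 9.43 of Abcb1b. Of the other 7 genes, Por averaged 5.31 ± 2.50, Abcc1 2.14 ± 1.08, Abcc5 1.62 ± 0.72 and Abcg2 0.50 ± 0.42 CPM per kilobase. Cyp3a13, Slc10a2 and Abcc3 followed at 0.20 ± 0.30, 0.15 ± 0.10 and 0.078 ± 0.16. The spreads of each gene and the next in this order overlap, and no test between genes was run. These values assume the longest transcript, while GENCODE also lists shorter ones, 9 transcripts for Abcb1b with the shortest at 489 bases.

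The share of Abcb1a in the summed counts of the pair was 63.2 ± 16.2% in CAR-deficient and 61.6 ± 5.80% in wild type libraries (SD, n = 9 each). It ran from 34.1 to 83.5% among CAR-deficient libraries and from 52.1 to 69.0% among wild type libraries. CAR-deficient cLP library a and spleen library a, at 34.1 and 40.2%, were the only 2 with more counts for Abcb1b than for Abcb1a. The difference between genotypes of 1.60 percentage points gave p = 0.794 in an exact permutation of genotype within organ (two-sided), and 0.795 after adjustment over the 4 comparisons of the share. This replaces the planned share of the deposited TPM, whose values are not given here and which gave another picture: it was higher in CAR-deficient libraries, with a larger difference in points and an exact permutation p past the threshold of 0.05 before adjustment but not after it. Without CAR-deficient siLP library a that share differed past the threshold after adjustment too, so the call depends on the measure and on that library. Without the 6 libraries a the share of counts differed between genotypes by 9.20 points, higher in CAR-deficient libraries. Its adjusted permutation p was 0.296 (exact, two-sided). The share was 66.2 ± 10.5% in siLP, 59.8 ± 12.8% in cLP and 61.3 ± 13.2% in spleen libraries (SD, n = 6 each), with an adjusted permutation p of 0.795 for each pair of organs (exact, two-sided).

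Abcc1, Abcc5 and Abcg2 are exporters of other classes of substrate. Abcc1 (MRP1; ENSMUSG00000023088, chr16:14361558-14475737, plus strand), which exports glutathione conjugates and leukotriene C4, was at 13.7, 8.43 and 13.8 CPM in CAR-deficient and 14.1, 12.8 and 9.43 CPM in wild type siLP libraries. In cLP it was at 26.3, 16.4 and 16.8 CPM in CAR-deficient and 37.5, 8.25 and 11.6 CPM in wild type libraries, and in spleen at 7.91, 9.35 and 14.5 CPM in CAR-deficient and 8.29, 17.6 and 15.2 CPM in wild type libraries. Both of its highest values came from cLP libraries a, and the organs overlapped (cLP over spleen 0.69 ± 0.38, adjusted p = 0.441 by edgeR). Abcc5 (MRP5; ENSMUSG00000022822, chr16:20331303-20426394, minus strand), an exporter of cyclic nucleotides, ranged from 3.20 to 18.7 CPM. In siLP it was at 10.02, 3.20 and 5.40 CPM in CAR-deficient and 13.8, 10.2 and 10.4 CPM in wild type libraries. These groups did not overlap, as for 8.33% of all tested genes in that comparison, and the log2 fold change was -0.88 ± 0.59 (adjusted p = 1.0, edgeR). Abcg2 (BCRP; ENSMUSG00000029802, chr6:58584523-58695676, plus strand), which exports urate and many drugs, varied widely inside groups, between 0.394 and 7.41 CPM in the CAR-deficient siLP libraries alone.

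Abcc3 (MRP3; ENSMUSG00000020865, chr11:94343295-94392997, minus strand), an exporter of bile acid and glucuronide conjugates, was detected in few libraries. It had 42 counts in CAR-deficient spleen library c and 0 in a and b, and 60, 1 and 33 counts in wild type spleen libraries. CAR-deficient cLP library b had 17 counts, CAR-deficient siLP library b had 2, and all other gut libraries had 0. The gene was at or above 3 counts in 4 of 18 libraries, so its fitted fold changes depend on the prior count and are not given as sizes. The unadjusted p was 0.00991 for siLP against spleen and 0.0335 for cLP against spleen, with adjusted p of 0.301 and 0.268 (edgeR).

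Slc10a2 (ENSMUSG00000023073, chr8:5083219-5105351, minus strand), known from the ileal epithelium, was at 0.0907 to 1.89 CPM, or 2 to 39 counts, in all 18 libraries. In siLP it was at 1.89, 0.464 and 1.30 CPM in CAR-deficient and 0.631, 0.613 and 0.717 CPM in wild type libraries. Spleen libraries had 0.422, 0.517 and 0.589 CPM in CAR-deficient and 0.507, 0.777 and 0.253 CPM in wild type cells, a range that the gut libraries overlapped. Partners of its pathway in the ileal enterocyte were detected in few libraries. Fabp6, which carries bile acids through the cell, had 3 or more counts in 2 libraries. Slc51a and Slc51b, which pass them on to the blood, did so in 2 libraries each. Where detected they could exceed the highest Slc10a2 level: Slc51a reached 6.91 CPM in CAR-deficient spleen library a and Slc51b 2.66 CPM in CAR-deficient cLP library b. Fabp6 reached 7.20 CPM in CAR-deficient cLP library b, where Slc10a2 was at 0.197 CPM. Slc10a2 counts were not whole in any library, and 95 of its 3937 distinct 31-base stretches (2.41%) occur in 2996 other genes. Where along the transcript its reads fell cannot be read from values per gene.

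Por (ENSMUSG00000005514, chr5:135670033-135735326, plus strand) was at 19.7, 3.03 and 19.5 CPM in CAR-deficient and 11.9, 19.3 and 11.8 CPM in wild type siLP libraries. In cLP it was at 0.493, 11.6 and 21.0 CPM in CAR-deficient and 11.1, 13.7 and 19.2 CPM in wild type libraries. In spleen it was at 14.5, 20.1 and 22.2 CPM in CAR-deficient and 2.40, 14.7 and 15.7 CPM in wild type libraries. It was low in 1 library of each of 3 groups and between 11.1 and 22.2 CPM in the other 15. The genes whose levels ran most like it over the 18 libraries were Wdr55, Bsdc1 and Noc3l, with Pearson correlations of log2 CPM of 0.95 each among 8447 genes compared. Wdr55, for example, was at 2.74, 0.431 and 1.38 CPM in the 3 libraries where Por was low and between 6.31 and 27.2 CPM in the other 15. The points share their libraries and depth, so the correlation is only a description.

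Cyp3a13 (ENSMUSG00000029727, chr5:137892932-137921619, minus strand), a cytochrome P450 of the mouse gut and liver, was at 0, 3.99 and 1.05 CPM in CAR-deficient cLP libraries and at 0.507, 0.375 and 0.408 CPM in wild type cLP libraries. All other libraries were at or below 0.991 CPM, and 2 of the 18 had no count. Its highest value, 81 counts, came from CAR-deficient cLP library b, the library with the most epithelial RNA. Without it, cLP over spleen was 0.33 in place of 1.16 on the log2 scale (adjusted p = 0.956 and 0.687, edgeR). The part of epithelial RNA in that value was not tested.

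Across genotypes, CAR-deficient and wild type T cells were not told apart by any of the 9 genes. By edgeR, DESeq2 and limma's voom alike, 0 of 9 passed the threshold in any organ or in the average over the 3 organs. By edgeR no unadjusted p of theirs was under 0.05 either. Of all 14876 genes, 0.0134% passed in the average over organs and 0 in any single organ, while 5.77% had an unadjusted p under 0.05 in the average, 4.31% in siLP, 2.44% in cLP and 1.95% in spleen. In the average, Abcb1a gave 0.39 ± 0.28 (95% interval -0.16 to 0.93), Abcb1b 0.19 ± 0.23 (-0.25 to 0.64) and their sum 0.33 ± 0.19 on the log2 scale. The intervals of Por (-0.92 to 1.16), Slc10a2 (-0.80 to 1.21) and Cyp3a13 (-1.53 to 1.34) reach a log2 fold change of 1. Those of Abcg2 (-2.04 to 0.76) and Abcc5 (-1.111 to 0.225) reach -1. The interval of Abcc3 reaches 1 too, but depends on the prior count. In siLP alone the interval of Abcb1a was -0.18 to 1.70. For Abcb1a the mean was 56.9 ± 21.2 CPM in CAR-deficient and 33.6 ± 17.3 CPM in wild type siLP libraries (SD, n = 3 each), with overlap between the groups. For Abcb1b in cLP it was 39.2 CPM in CAR-deficient and 26.1 CPM in wild type libraries without overlap, as for 7.41% of all genes in that comparison, and the log2 fold change was 0.58 ± 0.39 (adjusted p = 1.0, edgeR). The median log2 fold change of the 9 genes in the average over organs was 0.12, beside -0.01 over all tested genes. The genotype effect differed between organs for none of the 9 genes (3 differences between organs, lowest unadjusted p of 0.0857, adjusted p of 1.0 by edgeR), while the unadjusted p was under 0.05 for 2.27% of all genes between siLP and spleen, 1.24% between cLP and spleen and 2.41% between siLP and cLP.

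**Figure D3:**
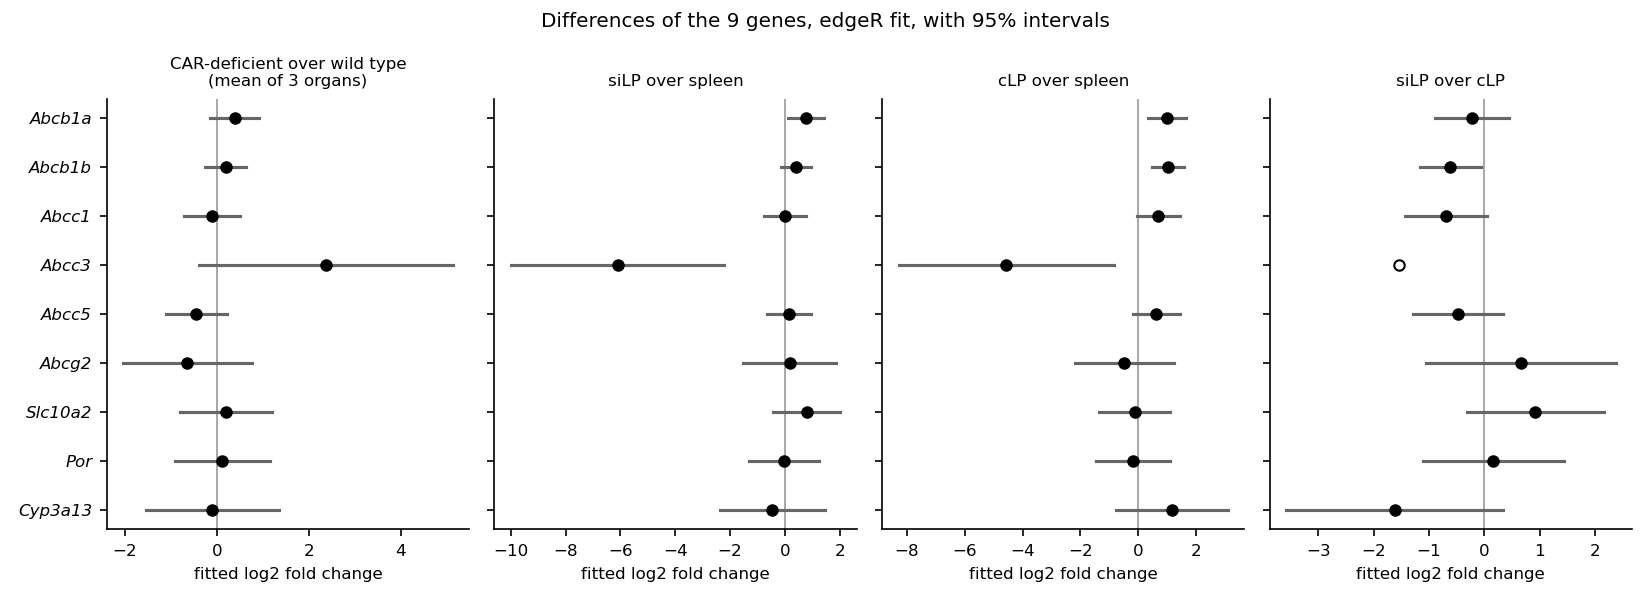
Fitted log2 fold change (x axis) of the 9 genes (rows) with 95% intervals, for CAR-deficient over wild type averaged over organs, siLP over spleen, cLP over spleen and siLP over cLP. For cLP over spleen Abcb1a lies at 0.99 and Abcb1b at 1.03 with intervals above 0; values of Abcc3 depend on the prior count, and the open circle has no finite interval.

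Between organs, 0 of 9 genes passed the threshold by edgeR on the counts alone, against 2 of 9 (Abcb1a and Abcb1b, cLP over spleen) in the planned fit with length offsets. By the counts alone, unadjusted p-values under 0.05 were more frequent. For cLP against spleen 3.07% of all tested genes passed. An unadjusted p under 0.05 was found for 15% of them and for 3 of the 9 genes: Abcb1a, Abcb1b and Abcc3. DESeq2 called 1 of the 9 (Abcb1b) and voom called 2 (Abcb1a and Abcb1b). For siLP against spleen the shares of all genes were 0.847% past the threshold and 9.65% under an unadjusted p of 0.05, among them Abcb1a and Abcc3. For siLP against cLP no gene passed and 8.34% had an unadjusted p under 0.05, among them Abcb1b. DESeq2 and voom called 0 of the 9 in these last comparisons. The median log2 fold change of the 9 genes was 0.63 for cLP over spleen, 0.15 for siLP over spleen and -0.48 for siLP over cLP, beside 0.00, -0.01 and -0.02 over all genes. The organ comparisons share libraries, so they are not independent of each other.

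Other genes of the pathway were read from 5 lists. Of 14 other exporters 5 could be tested, and of 15 other importers 7. Of 25 cytochromes P450 and their electron donors 13 could be tested, and of 37 conjugation enzymes 25. Of 12 drug and bile acid sensors and related genes 7 could be tested. Gstm2, a glutathione transferase, was the only gene of these lists past the threshold in any comparison: it averaged 9.95 CPM in cLP and 0.00681 CPM in spleen libraries, with an adjusted p of 0.0328 (edgeR). Its cLP levels were 0.493, 28.8 and 12.2 CPM in CAR-deficient and 0, 8.11 and 10.2 CPM in wild type libraries. Gstm2 was lowest in both cLP libraries a and highest in the library with the most epithelial RNA, and the part of either was not tested. Between genotypes the smallest p belonged to Gstt2, another glutathione transferase, which averaged 33.8 ± 13.3 CPM in CAR-deficient and 60.6 ± 14.2 CPM in wild type libraries (SD, n = 9 each; adjusted p = 0.493, edgeR). Of known CAR targets of the liver, Cyp2b10 did not exceed 0.148 CPM. Cyp3a11 had no count in any library. The sterol exporter Abcg1 averaged 5.51 ± 3.73 CPM in cLP and 14.95 ± 4.82 CPM in spleen libraries (SD, n = 6 each; adjusted p = 0.195, edgeR). Abcc4, an exporter of cyclic nucleotides and bile acids, averaged 10.3 ± 2.14 CPM in cLP and 20.3 ± 10.5 CPM in spleen libraries (adjusted p = 0.437, edgeR). Among importers, the hepatocyte bile acid transporter Slc10a1 averaged 5.02 ± 4.18 CPM in siLP and 1.99 ± 1.51 CPM in spleen libraries (adjusted p = 0.696, edgeR).

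Among genes of at least 5 CPM, those whose log2 CPM ran most like Abcb1a over the 18 libraries included Il22 (Pearson correlation 0.80) and Mgst1 (0.80). Il22 encodes a cytokine that acts on epithelium. Il22 was at 59.2, 25.9 and 32.3 CPM in CAR-deficient and 0, 2.31 and 50.7 CPM in wild type siLP libraries. In cLP it was at 0, 28.5 and 34.7 CPM in CAR-deficient and 157, 8.67 and 109.6 CPM in wild type libraries. The genotypes overlapped in both gut organs, the higher group mean was CAR-deficient in siLP and wild type in cLP, and spleen libraries did not exceed 3.16 CPM. For Abcb1b the most alike were Fam83d (0.82), Ifitm3 (0.81) and Mapkapk3 (0.81). Abcb1a and Abcb1b themselves correlated at 0.36, and the highest value between any pair of the 9 genes was 0.59, for Abcc1 and Abcc5. For the other genes the highest correlations were 0.77 for Abcc1 (Zdhhc5), 0.77 for Abcc3 (Fam160b1), 0.79 for Abcc5 (Agpat4), 0.80 for Abcg2 (Immt), 0.68 for Slc10a2 (Aig1) and 0.76 for Cyp3a13 (Dstn).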

How the data were processed

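RNA was amplified with a SMART-Seq v4 low input kit (Clontech) and libraries were finished with NEBNext Ultra II DNA, per the labels' protocols. Salmon, DESeq2 and mm10 are named in the submitters' processing notes, without version or role; the annotation was not given there. The authors deposited estimated counts per gene, per the file headers. The 18 count columns were used and the other 37 columns were not: column names give only the group, so 1 measure was kept. The share of Abcb1a and length offsets had been planned on the other columns; this was changed after values of both kinds had been seen, and the outcome of those fits is stated beside the results it touches. Names came from GENCODE vM21 (GRCm38), which held all 34162 identifiers.

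Estimated counts were rounded to whole numbers and filtered with filterByExpr (edgeR 4.0.16, R 4.3.3; minimum count 10, 6 groups). TMM, estimateDisp, glmQLFit (robust off) and two-sided glmQLFTest were run over all 18 libraries with 6 group means (common biological coefficient of variation 0.792), and p-values were adjusted over 14876 genes (threshold 0.05). The columns carry no replicate numbers. DESeq2 1.42.0, limma 3.58.1 voom, other scaling and filtering, a column block and left-out libraries were alternatives. The fit was also run on simulated counts with known changes, and the outcome is not reported here. The SE was taken as log2 fold change divided by root F, and intervals cover 95%. SE, SD and intervals cover the spread between libraries. For single values, permutations were exact.

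The 9 genes and all lists were chosen with earlier results of these data known. The text names the 9 genes, up to 3 genes most like each by correlation (1 is not reported here), and, of each list, genes past the threshold or with the smallest p. Genes such as Slc51a, Fabp6 and Cyp3a11 were named after their values were seen, as were the levels chosen for Il22 and Wdr55.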

Additional observations from a re-analysis of the deposited data

How the results depend on the processing

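The number of the 9 genes past the threshold was 0 in all 10 comparisons by edgeR on the counts alone and stayed 0 under every alternative in 9 of them. For cLP against spleen it was 1 with DESeq2, 2 with voom and sample weights and 2 without the 6 libraries a. It was 0 to 1 when single libraries were left out. The column ending used as a replicate block also gave 1: Abcb1b at 1.02, adjusted p 0.0458. Libraries of the same column ending deviated together, with correlations over 0.1 in 41 of 45 pairs (0.023 to 0.4) against 7 of 90 other pairs. The share of Abcb1a between genotypes differed by -1.04 to 5.22 points when single libraries were left out. Over 24 alternatives, 130 of 2160 recomputed log2 fold changes of the 9 genes changed sign, none of them past the threshold. The main fit called none of the 9 genes, so there was no call to reverse, and 8 recomputed values newly passed the threshold. The cause of these shifts was not tested. The planned length offsets and the planned share of TPM were computed before the length and TPM columns were set aside, since column names give only the group. The offsets put 2 of the 9 genes, Abcb1a and Abcb1b, past the threshold for cLP against spleen and none elsewhere. The TPM share differed more between genotypes than the share of counts and passed after adjustment only without CAR-deficient siLP library a.

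Counts over all genes moved more. For cLP against spleen they were 456 in the edgeR fit as planned, 1146 with DESeq2, 1828 with voom, 747 with the block, 749 without libraries a and at least 207 with a library left out. For siLP against spleen they were 126, and 474, 251 and 243 with DESeq2, voom and the block. For siLP against cLP they were 0, and 267, 434, 16 and 162 with DESeq2, voom, the block and without libraries a. For the genotype average they were 2, and 143, 11, 7 and 10 with DESeq2, voom, the block and no filter. In single organs DESeq2 called 45, 14 and 23 genes between genotypes in siLP, cLP and spleen, against 0 by edgeR.

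Depth limits Abcc3, Slc10a2 and Cyp3a13, with medians at or below 0.559 CPM.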
